A study of Mus musculus with 67 samples.

Results

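Chromatin accessibility was compared between p0-1 and pMN neural progenitors at day 6 of differentiation. They were the samples labelled p0-1 from 0 nM SAG (2) and 10 nM SAG (3), and pMN from 100 nM SAG (2) and 500 nM SAG (2), 9 of the 67 samples of the series. All came from HM1, a line of mouse embryonic stem cells. Every group had the same medium, with bFGF and the Wnt secretion inhibitor LGK first, then bFGF, CHIR99021, SB-431542 and DMH1, and from day 3 retinoic acid together with SAG, an agonist of Smoothened. The groups therefore differed in the labelled SAG concentration and in the sorted cell type. Cells were fixed in paraformaldehyde, transposed with Tn5, stained for transcription factors and sorted, a protocol called CaTS-ATAC. Sorted cells were first gated for SOX2, a protein of neural progenitors that most neurons lack. By the study's definitions, p0-1 cells have PAX6 without NKX6.1, and pMN cells have OLIG2 without NKX2.2. The study's figure legends call the replicates independent differentiations. The 5 p0-1 samples carry 3 replicate numbers and the 4 pMN samples carry 2, so samples of a cell type are not all separate differentiations. No SAG concentration gave both cell types in these 9 samples, so the effect of cell type and that of SAG cannot be told apart in the comparison itself.

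In the ventral neural tube, Sonic hedgehog (Shh) diffuses from the notochord and floor plate and sets the position of progenitor domains along the dorsal-ventral axis. The pMN domain expresses the bHLH factor OLIG2 and makes motor neurons, and later oligodendrocytes. The p0 and p1 domains lie more dorsally, receive less Shh and make the V0 and V1 interneurons of the ventral cord. The factors of neighbouring domains repress each other, and GLI proteins carry the Shh signal to the DNA, with GLI3 mostly as a repressor where the signal is low. An ATAC-seq element is a stretch of open chromatin, and its value here is a normalized count of reads, which does not say what the element regulates.

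The reads of a sample that lay in elements numbered 18223634 to 26532263. Of 32346 elements with a mean above 100 normalized counts over the 9 samples, 939 passed both thresholds of a call (limma, adjusted p below 0.01 and a log2 fold change beyond 2 either way), which is 2.9% of those tested. The log2 fold change is that of the mean normalized counts plus 1, pMN over p0-1. There were 708 elements higher in pMN, 2.19% of those tested, and 231 higher in p0-1, 0.714%. The median log2 fold change over all elements tested was -0.08, and 28 elements had an absolute log2 fold change above 2 without being called. The p0-1 and pMN samples did not overlap in 938 of the 939 called elements, against 9063 of all elements tested, 28%. The exception was an intronic element of Gpc5 (chr14:115195405-115197207), at -2.04. The calls were made on these same values, so the lack of overlap was largely part of the choice and is no separate result. Of the called elements, 75.4% were higher in pMN, and this share was 62.6% once samples had been corrected for the GC content and level of elements, and 68.7% once they had been centred on their medians. The squared correlation of samples across the elements tested was 0.613 to 0.830 between the cell types and 0.799 to 0.977 within them.

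**Figure D1:**
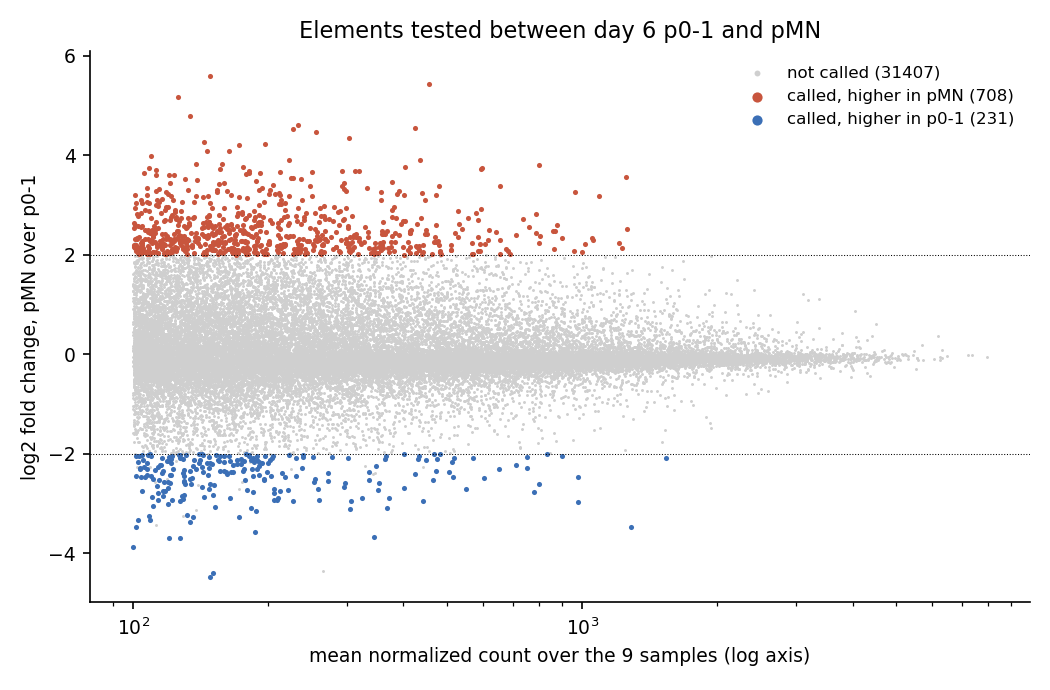
Log2 fold change of pMN over p0-1 at day 6 (y) against the mean normalized count over the 9 samples (x, log axis), 1 point per element tested, with the 708 elements called higher in pMN in red, the 231 called higher in p0-1 in blue and the others in grey. Dotted lines mark the fold change threshold, and the called elements reach 5.60 on the pMN side and -4.49 on the p0-1 side.

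The central 300 bases of 7 called elements are shown because they carry short motifs, at the elements with the largest changes or near genes that define the domains. The shares of these motifs differed between the sets or, for TAATNA, were above that of all elements tested in both sets. They are the reference sequence of GRCm38, written 5′ to 3′ on the plus strand, and the HM1 line may differ from it. Capitals mark each match of the motif named, in either orientation. The first group, higher in pMN, holds the E-box CAGATG, read as CATCTG from the opposite strand, a sequence bound by bHLH factors. It is shown for the element with the largest change, 626 kb from 2810032G03Rik (chr12:6001098-6001397). It is also shown for the most changed element near Olig2, 40.9 kb from its TSS (chr16:91184480-91184779). Another element of this group lies 24.8 kb from the TSS of Slc18a3, in an intron of Chat (chr14:32439860-32440159).
2810032G03Rik: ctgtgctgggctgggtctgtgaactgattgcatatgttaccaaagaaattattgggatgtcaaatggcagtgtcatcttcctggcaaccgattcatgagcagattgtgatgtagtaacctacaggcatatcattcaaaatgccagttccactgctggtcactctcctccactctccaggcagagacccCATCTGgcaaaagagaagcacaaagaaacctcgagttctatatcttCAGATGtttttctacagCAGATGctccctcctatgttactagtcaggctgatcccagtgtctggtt
Olig2: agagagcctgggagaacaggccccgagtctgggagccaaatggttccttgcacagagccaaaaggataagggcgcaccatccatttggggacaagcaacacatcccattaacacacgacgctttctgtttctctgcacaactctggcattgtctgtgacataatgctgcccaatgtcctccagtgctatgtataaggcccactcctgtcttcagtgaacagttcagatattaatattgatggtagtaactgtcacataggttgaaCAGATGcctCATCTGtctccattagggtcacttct
Slc18a3: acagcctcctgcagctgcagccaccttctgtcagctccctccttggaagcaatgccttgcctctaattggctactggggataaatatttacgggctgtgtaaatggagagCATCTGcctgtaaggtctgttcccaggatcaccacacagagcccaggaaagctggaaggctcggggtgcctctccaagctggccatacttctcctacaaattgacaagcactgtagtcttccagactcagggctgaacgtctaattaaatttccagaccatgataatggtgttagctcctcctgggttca
The second group, also higher in pMN, holds the GLI core ACCACCC, and lies 8.17 kb from Nkx2-9 (chr12:56621301-56621600) and 5.16 kb from Lhx4 (chr1:155747042-155747341).
Nkx2-9: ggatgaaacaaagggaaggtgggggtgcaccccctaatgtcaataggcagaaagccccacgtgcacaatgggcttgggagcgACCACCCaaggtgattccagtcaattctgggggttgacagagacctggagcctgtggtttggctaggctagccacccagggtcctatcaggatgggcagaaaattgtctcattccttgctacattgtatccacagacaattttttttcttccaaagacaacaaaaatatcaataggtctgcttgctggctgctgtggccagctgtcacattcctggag
Lhx4: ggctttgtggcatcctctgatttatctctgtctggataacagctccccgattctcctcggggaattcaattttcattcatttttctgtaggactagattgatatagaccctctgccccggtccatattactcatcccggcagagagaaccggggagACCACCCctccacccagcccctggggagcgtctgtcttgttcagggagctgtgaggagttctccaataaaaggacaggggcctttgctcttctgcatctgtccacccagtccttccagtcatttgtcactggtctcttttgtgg
The last pair, higher in p0-1, is the element with the largest decrease, 35.3 kb from Jak2 (chr19:29216308-29216607), with GGAATG, the core bound by TEAD factors, and the element 59.8 kb from Dbx1 (chr7:49696466-49696765), with the homeodomain pattern TAATNA.
Jak2: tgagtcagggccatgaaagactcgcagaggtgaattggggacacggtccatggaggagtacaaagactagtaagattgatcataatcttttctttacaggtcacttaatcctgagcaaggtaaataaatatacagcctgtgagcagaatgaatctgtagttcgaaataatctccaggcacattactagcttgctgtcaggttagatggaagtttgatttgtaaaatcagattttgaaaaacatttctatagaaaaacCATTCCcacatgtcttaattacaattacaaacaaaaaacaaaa
Dbx1: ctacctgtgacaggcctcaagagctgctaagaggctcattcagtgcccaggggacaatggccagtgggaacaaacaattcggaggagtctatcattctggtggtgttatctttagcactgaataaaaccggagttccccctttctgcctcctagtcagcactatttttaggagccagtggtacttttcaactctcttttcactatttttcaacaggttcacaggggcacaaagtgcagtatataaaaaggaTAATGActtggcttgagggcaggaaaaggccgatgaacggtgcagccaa

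Each motif was searched on both strands in the central 300 bases of every element tested. CAGATG was present in 323 of the 708 elements higher in pMN, 45.6%, and in 47 of the 231 higher in p0-1, 20.3%. Over all elements tested it was present in 19.4%, and in 22.2% of the 25498 that are not promoters. Other E-boxes of the CANNTG family went the same way, CAGCTG with 30.9%, 13.0% and 19.4%, and CATATG with 7.20%, 3.46% and 3.52%. CAGATG was thus near its background among the elements higher in p0-1 and above it among those higher in pMN.

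The GLI core was in 55 elements higher in pMN, 7.77%, and in 2 higher in p0-1, 0.866%, against 4.71% of all. The TEAD core GGAATG had the opposite order, with 70 of 231 elements higher in p0-1, 30.3%, 17.7% of those higher in pMN and 15.5% of all. TAATNA was in 46.8% of the elements higher in p0-1, 40.7% of those higher in pMN and 26.3% of all, so both sets were above the background. TAATTA, a sequence contained in TAATNA, was in 7.79%, 8.19% and 5.58%. The SOX patterns ACAATG and ACAAAG were above their background in both sets, ACAATG with 23.8% in p0-1 and 28.2% in pMN against 16.9%. The octamer ATGCAAAT, bound by POU factors, was in 10 elements higher in p0-1, 4.33%, 1.55% of those higher in pMN and 1.91% of all. GGGCGG, a GC-rich sequence of promoters, was in 2.60% and 7.63% against 30.8%. Among the tested elements that are not promoters, the shares were 4.70% for the GLI core, 17.1% for GGAATG and 30.6% for TAATNA. They were 19.9% for ACAATG, 2.15% for ATGCAAAT and 21.7% for GGGCGG. The called sets had few promoters and a lower GC content than all elements tested, and the shares were not adjusted for this. These shares are descriptions without a test, and a match of 6 to 8 letters does not show that a factor was bound.

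The elements at genes that define the domains served as a check of the sort. At the Olig2 TSS (chr16:91224754-91227830) the p0-1 samples had 409 and 315 normalized counts at 0 nM and 444, 489 and 381 at 10 nM, and the pMN samples had 2361 and 2338 at 100 nM and 2302 and 2298 at 500 nM. The log2 fold change was 2.51, with a difference of 2.49 ± 0.11 (SE) on the variance-stabilized scale and an adjusted p of 5.4e-06. The element was far from closed in p0-1, with a mean of 408 ± 65.6 (SD, n = 5). At the Nkx6-1 promoter (chr5:101662711-101666976) the log2 fold change was 0.85, from a p0-1 mean of 1431 ± 243 (SD, n = 5) to a pMN mean of 2586 ± 59.6 (SD, n = 4), adjusted p = 0.00032 (limma), which is under the fold change threshold. Pax6, whose protein marked the p0-1 sort, had a promoter element (chr2:105673776-105676787) with 3889 ± 318 (SD, n = 5) in p0-1, 3208 ± 131 (SD, n = 4) in pMN and thus -0.28 on the log2 scale. The elements nearest the TSS of the neural progenitor genes Sox2 and Sox1 had log2 fold changes of 0.13 and -0.07. The elements nearest Irx3 and Dbx2, other genes of p0 to p2 progenitors, were at -0.34 and -0.37 with adjusted p = 0.148 and 0.111. The Olig2, Nkx6-1 and Pax6 elements at the start sites thus followed the labels in direction, and of these only that of Olig2 passed both thresholds.

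Ventral progenitor genes had 67 elements tested, of which 20 were called, all higher in pMN, 29.9% against 2.19% of all elements tested, with a median log2 fold change of 1.10 over the 67. They lay near 5 genes, Olig1, Olig2, Nkx6-1, Nkx2-9 and Sp8. Since OLIG2 and NKX6.1 were used to sort, the elements at their genes describe the sorted cells and are no independent result. Near Olig2, 6 of 9 elements tested were called, spread over 71.0 kb (chr16:91166717-91237744). The largest change was 40.9 kb upstream (chr16:91184327-91184932), where the p0-1 samples had 12.9, 7.93, 17.7, 24.5 and 23.2 normalized counts and the pMN samples 259, 350.2, 227 and 390.0. This is a log2 fold change of 4.07, adjusted p = 1.32e-05. A further element 32.5 kb upstream (chr16:91192333-91193821) had 2236 ± 660 (SD, n = 5) in p0-1 against 4797 ± 442 (SD, n = 4) in pMN, or 1.10 on the log2 scale, so the most open element of the locus was open in both cell types.

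Olig1, the neighbouring bHLH gene, had 3 of 6 elements called. The most changed one, 28.1 kb downstream (chr16:91297498-91298284), had 57.7, 75.3, 127, 71.1 and 126 normalized counts in p0-1 and 1134, 1308, 1052 and 1407 in pMN (log2 fold change 3.73, adjusted p = 9.46e-06). At Nkx6-1, 9 of 17 elements tested were called over 359.8 kb (chr5:101296936-101656702), with log2 fold changes of 2.02 to 3.21. All 17 were higher in pMN on average, and the 8 not called ranged from 0.79 to 1.95. The most changed, 167 kb from the TSS (chr5:101496791-101498062), went from 29.4, 28.7, 49, 48.9 and 67.8 to 343, 434, 346 and 563 normalized counts. The gene therefore had a wide field of elements that differed, while its promoter differed by less.

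Nkx2-9, a homeobox gene of the most ventral progenitors, is not among the markers used to sort. Its called element lay 8.17 kb upstream (chr12:56621016-56621884) and is shown above for its GLI core. It had 11.8, 23.8, 22, 15.1 and 28.1 normalized counts in p0-1 and 349.6, 496, 484 and 615 in pMN, a log2 fold change of 4.53 with a difference of 3.98 ± 0.22 (SE) and an adjusted p of 7.33e-06. The lowest pMN sample was more than 10 times the highest p0-1 sample. An element 16.4 kb upstream of Sp8, a zinc finger factor gene (chr12:118829616-118830339), had 109 and 129 at 0 nM, 355, 238 and 297 at 10 nM, and 1061, 1184, 932 and 1253 in pMN (log2 fold change 2.29, adjusted p = 0.000307). It was not called when only 10 nM p0-1 was set against 100 nM pMN, at 1.92.

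Genes of dorsal and intermediate progenitors had 109 elements tested, of which 5 were called, all higher in p0-1, 4.59% against 0.714% of all elements tested, with a median log2 fold change of -0.38 over the 109. Dbx1, the homeobox gene of p0 progenitors, had 3 of the 5. Its element 59.8 kb upstream (chr7:49696204-49697027) had 2027 and 1783 normalized counts at 0 nM, 2117, 2458 and 2373 at 10 nM, 321 and 149.3 at 100 nM, and 224 and 80.6 at 500 nM, a log2 fold change of -3.47 (difference -3.53 ± 0.30 SE, adjusted p = 3.18e-05). It was the most open of the elements with a log2 fold change below -3. The other called elements, 3.27 kb and 51.6 kb upstream, had log2 fold changes of -2.92 and -2.24. The element nearest the Dbx1 TSS was at -1.27, from 2549 ± 278 (SD, n = 5) to 1055 ± 58.1 (SD, n = 4), adjusted p = 1.25e-05.

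Pax3, a paired box gene of the dorsal neural tube, had an intronic element (chr1:78171170-78172136) with 220.1, 203, 200.3, 239 and 194 normalized counts in p0-1 and 32.3, 26.3, 27.1 and 29.2 in pMN (log2 fold change -2.84, adjusted p = 7.19e-06). Replicates varied little here, and SAG within a cell type had no visible step. An element 37.8 kb from Gsx1, a homeobox gene of dorsal progenitors (chr5:147225011-147227937), had 757 and 824 at 0 nM, 1254, 997 and 1224 at 10 nM, 255 and 263 at 100 nM and 151 and 147 at 500 nM, which is -2.30 on the log2 scale (adjusted p = 5.69e-05). The order by SAG thus reversed between the cell types at this element, higher at 10 nM than 0 nM in p0-1 and lower at 500 nM than 100 nM in pMN, and neither step passed its test (adjusted p = 0.101 and 1).

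Motor neuron genes had 54 elements tested and 8 called, all higher in pMN, 14.8% against the same 2.19%, with a median log2 fold change of 0.29 over the 54. The 8 elements lay near Lhx3, Lhx4, Mnx1, Isl1 and Slc18a3. Lhx3, a LIM homeobox gene of motor neurons and V2 interneurons, had 3 of 6 elements called within 8.22 kb (chr2:26175047-26183269). The most changed of them (chr2:26179010-26179434) had 3.53, 13.9, 20.3, 5.82 and 24.2 normalized counts in p0-1 and 186, 300.5, 121 and 312 in pMN (log2 fold change 3.99, adjusted p = 0.00011). A stronger one beside it (chr2:26175047-26175846) went from 101.2 ± 48.7 (SD, n = 5) to 937 ± 240 (SD, n = 4), a log2 fold change of 3.20.

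An element 24.8 kb from Slc18a3, which encodes the vesicular acetylcholine transporter (chr14:32439551-32440467), had 8.24, 12.9, 27.9, 26.8 and 34.9 in p0-1 and 240.3, 314, 298 and 458 in pMN (log2 fold change 3.83, adjusted p = 3.4e-05). This element lies in an intron of Chat, another gene of the motor neuron list. Upstream of Mnx1, a homeobox gene of motor neurons (chr5:29484063-29486273), p0-1 had 29.4, 34.7, 31.3, 46.6 and 31.9 and pMN 333, 284, 318 and 374 (log2 fold change 3.20, adjusted p = 7.19e-06). Near Lhx4, of the same family as Lhx3 (chr1:155746946-155747436), the values were 18.8, 37.7, 47.3, 23.3 and 64.9 against 303, 610.3, 281 and 634, a log2 fold change of 3.54. The Isl1 element was 558 kb from its TSS, with a log2 fold change of 2.38. This element was as open in day 6 p2, with 258 ± 105 (SD, n = 6), as in pMN, with 263 ± 30.1 (SD, n = 4). Its log2 fold change of pMN over p2 was 0.03 (limma, adjusted p = 0.879), and that of p2 over p0-1 was 2.35, which was called. In contrast, the elements nearest the TSS had log2 fold changes of -0.12 for Mnx1, 0.03 for Isl1, 0.24 for Lhx4, 0.58 for Slc18a3 and 0.62 for Lhx3, none of them called. The called elements of this group were thus all away from the start sites.

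**Figure D2:**
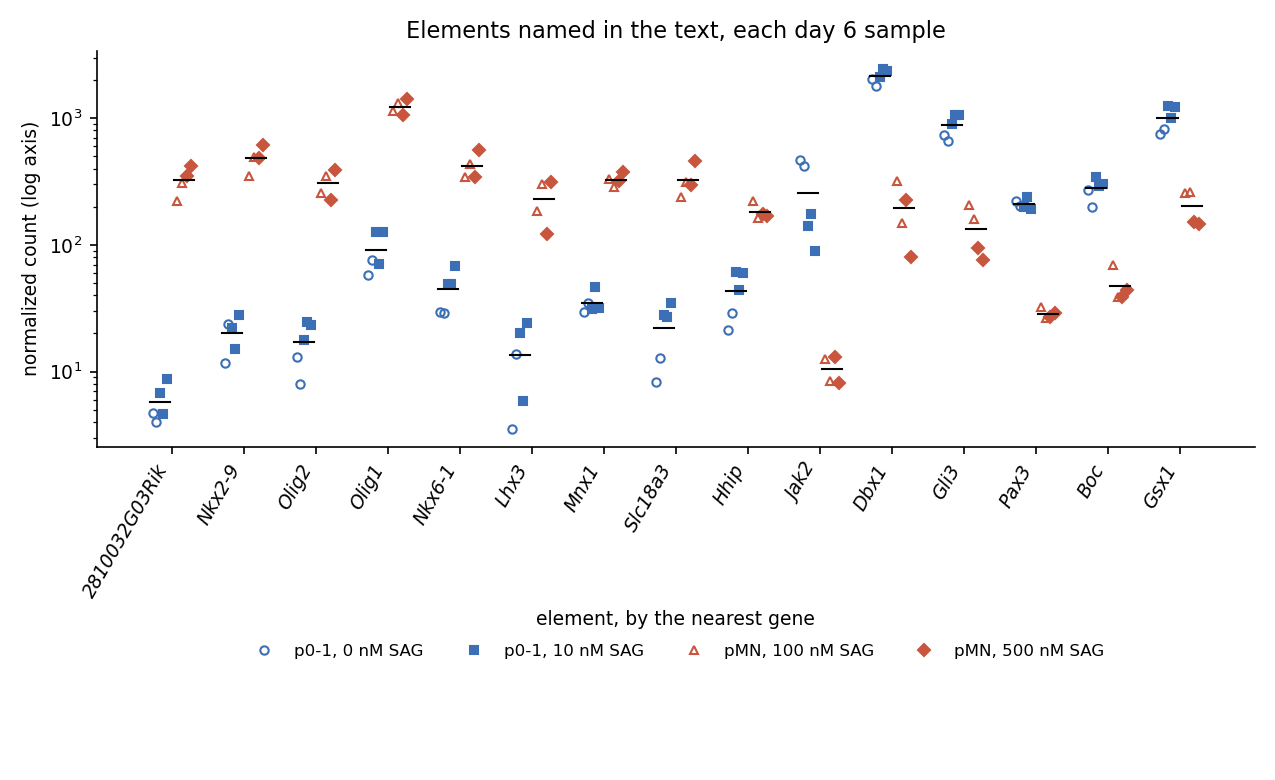
Normalized count (y, log axis) of the most changed element near each of 15 genes (x) in each of the 9 day 6 samples, with p0-1 in blue (open circles 0 nM, filled squares 10 nM SAG), pMN in red (open triangles 100 nM, filled diamonds 500 nM) and bars for the mean of each cell type. No p0-1 sample overlaps a pMN sample at any of the 15 elements, which were chosen by these values. Several elements, among them those of Jak2, Gsx1, Gli3, Slc18a3 and Nkx6-1, show steps between SAG concentrations within a cell type.

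Genes of the Hedgehog pathway had 51 elements tested, with 1 called higher in pMN, near Hhip, and 3 called higher in p0-1, near Gli3 and Boc, together 7.84% against 2.9% of all, and a median log2 fold change of -0.07. Of the 51, 10 were higher in pMN and 9 higher in p0-1 at an adjusted p under 0.01 without the fold change threshold. Over all 32346 elements tested these counts were 4058 and 1780. Gli3, which encodes the main repressor of the pathway, had an element 356 kb from its TSS (chr13:15107522-15108778) with 731 and 665 normalized counts at 0 nM, 904, 1068 and 1057 at 10 nM, 207 and 159.6 at 100 nM and 94.2 and 75.9 at 500 nM. Its log2 fold change was -2.71 (adjusted p = 6.41e-05), while the Gli3 promoter (chr13:15462678-15464838) was at -0.40, adjusted p = 0.00404. Boc, which encodes a co-receptor of Shh, had an element 20.97 kb upstream (chr16:44579345-44580325) with 271, 198, 347, 290.1 and 302 in p0-1 and 69, 38.5, 39.1 and 44.4 in pMN (log2 fold change -2.54, adjusted p = 3.28e-05). Hhip encodes a protein that binds Shh and is a target of the pathway. Its called element (chr8:79934373-79936190) had 21.2, 28.7, 60.9, 44.3 and 60 in p0-1 and 223, 163, 175 and 168 in pMN, a log2 fold change of 2.06. That call is close to the threshold, and it fell below it without the 0 nM p0-1 replicate 2 (1.89), without the 0 nM p0-1 replicate 3 (1.95) and with GC correction (1.89).

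Of the genes that the pathway activates, Ptch1 was more open in pMN, but by less than the fold change threshold. The element nearest the TSS of this receptor gene, 7.09 kb away (chr13:63571708-63573943), had 418 and 517 normalized counts at 0 nM, 728, 762 and 733 at 10 nM, and 1523, 1616, 1569 and 1569 in pMN, or 1.31 on the log2 scale (adjusted p = 0.000232). At Gli1, a factor that the pathway induces (chr10:127338779-127342705), the values were 1211 and 1655 at 0 nM, 2548, 3202 and 2571 at 10 nM and 3231, 3199.9, 3282 and 2959 in pMN. The Gli1 groups overlapped, at 0.50 on the log2 scale (adjusted p = 0.0981), and the 10 nM p0-1 samples lay closer to pMN than to 0 nM p0-1. The elements nearest Smo, the protein SAG binds, and Gli2 were at -0.27 and -0.19 with adjusted p = 0.0503 and 0.104.

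An element 79.5 kb upstream of Cdon, which encodes another co-receptor (chr9:35371997-35373105), was chosen after its values were seen. It had 683 and 1321 normalized counts at 0 nM, 79.4, 66.4 and 144 at 10 nM, and 10.8, 29.1, 19 and 26.9 in pMN. The log2 fold change of -4.36 was among the largest decreases, but the adjusted p was 0.0165, so it was not called. By limma it was called with the replicate number as a block, adjusted p = 0.00902, or 0.00808 with GC correction as well. It was also called between 0 nM p0-1 and 500 nM pMN alone, at -5.39 (adjusted p = 0.00834). It was not called with 1 value per cell type and replicate number (0.0360), with voom (0.102) or in any fit that left out 1 sample (0.0109 to 0.0462). The 0 nM samples stood far above all others, and the log2 fold change of 10 over 0 nM within p0-1 was -3.36 (adjusted p = 0.0533). In the separate day 5 samples p0-1 had a mean of 941 ± 326 (SD, n = 3) without SAG, against 295 ± 38.9 (SD, n = 3) with 10 nM, while pMN had 36.9 ± 9.21 (SD, n = 3) at 100 nM. There the element was called between the cell types, with a log2 fold change of -3.99.

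Among all called elements, the largest increases in pMN lay mostly near genes outside these lists. The element with the largest change, 626 kb from the TSS of 2810032G03Rik (chr12:6001014-6001480), had 4.71, 3.97, 6.76, 4.66 and 8.71 normalized counts in p0-1 and 223, 309.9, 348 and 423 in pMN. Its log2 fold change was 5.60, with a difference of 4.37 ± 0.20 (SE) and an adjusted p of 5.4e-06. Of the 7 elements tested that are nearest to this gene, 4 were called, at 624 to 879.7 kb from the annotated TSS. The other 9 of the 10 largest increases had log2 fold changes of 4.27 to 5.43 and among their nearest genes were Gm815, Sntb2, Adra1a, 1700024I08Rik, Nkx2-9, Efnb2 and, for 2 of them, 2810032G03Rik. The element in an intron of Sntb2, a syntrophin gene (chr8:106951448-106952021), had 10.6, 2.97, 7.61, 8.15 and 3.87 in p0-1 and 253, 259, 292 and 298 in pMN. The one 811 kb from Efnb2, which encodes the ligand ephrin-B2 (chr8:7850199-7850972), had 28.3, 8.92, 34.7, 33.8 and 12.59 in p0-1 and 603, 447, 679 and 454 in pMN. Annotation to the nearest TSS at such distances does not say which gene an element acts on.

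The 10 largest decreases had log2 fold changes of -3.38 to -4.49 and were nearest to Jak2, Grin2a, Cyp7b1, Arap2, Slc8a1, 1700017J07Rik, 4833438C02Rik, Mir99ahg, Dbx1 and Anxa10. At the Jak2 element, named for a kinase of cytokine receptors (chr19:29215889-29217025), the values were 467 and 416 at 0 nM, 141, 175 and 90 at 10 nM, and 12.55, 8.45, 13 and 8.17 in pMN. Its log2 fold change was -4.49, with a difference of -3.41 ± 0.43 (SE) and an adjusted p of 0.000236. The intronic element of Cyp7b1, an oxysterol hydroxylase gene (chr3:18186338-18186888), went the other way within p0-1, with 58.9 and 50.6 at 0 nM and 300.05, 169 and 279.8 at 10 nM, and had 18.8, 12.2, 7.01 and 4.67 in pMN (log2 fold change -3.89, adjusted p = 0.0019). The intronic element of Grin2a, a glutamate receptor gene (chr16:9700944-9701694), had 209.6, 509.5, 126, 136 and 330.1 in p0-1 and 17.9, 13.1, 9.02 and 5.84 in pMN, a log2 fold change of -4.40. The p0-1 samples differed widely among themselves at these 3 elements, and elements were named only where the groups did not overlap.

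Genes for axon guidance had 165 elements tested, with 5 called higher in pMN and 4 higher in p0-1, together 5.45% against 2.9% of all, and a median log2 fold change of -0.08. Both directions occurred among genes of 1 ligand and receptor system. An element 929.9 kb from Slit2, a secreted repellent (chr5:47052975-47053463), had 251, 310.3, 263, 274 and 413 normalized counts in p0-1 and 42.1, 46.9, 30.1 and 19.9 in pMN (log2 fold change -3.08, adjusted p = 2.2e-05). An intronic element of Slit3 (chr11:35317914-35318833) had 73, 180.4, 134, 97.9 and 274 in p0-1 and 901, 1362, 871 and 1458 in pMN (log2 fold change 2.91, adjusted p = 0.000126). Of the genes for SLIT receptors, Robo1 had an exonic element at -2.39 and Robo2 an intronic one at 2.05. An element 160.0 kb from Epha3, a receptor of ephrins (chr16:64023923-64024508), rose from 24.2 ± 5.22 (SD, n = 5) to 283 ± 30.2 (SD, n = 4), a log2 fold change of 3.49. Elements of Sema3c and Unc5c had log2 fold changes of 2.31 and 2.02. The Robo2 and Unc5c calls were close to the threshold, and both fell below it with GC correction, at 1.86 and 1.81. Robo2 was at 2.00 without 0 nM p0-1 replicate 2 and 1.99 without 0 nM p0-1 replicate 3. Unc5c was at 1.97 without 0 nM p0-1 replicate 2, 1.92 without pMN 100 nM replicate 3, 1.91 without 10 nM p0-1 replicate 2 and 2.00 without 10 nM p0-1 replicate 3 (values printed as 2.00 were just under the threshold).

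Cadherin genes had 71 elements tested, 3 called higher in pMN and 3 higher in p0-1, together 8.45% against 2.9%, with a median of -0.10. All 3 elements higher in pMN lay near Cdh11, and those higher in p0-1 near Cdh6, Cdh12 and Pcdh9. The most changed Cdh11 element, 688 kb from its TSS (chr8:102096354-102097035), had 5.89 and 2.97 at 0 nM, 31.3, 19.8 and 24.2 at 10 nM and 298, 179, 274 and 175 in pMN (log2 fold change 3.70). The Cdh12 element (chr15:21181683-21182322) went from 237 ± 42.7 (SD, n = 5) to 37.9 ± 8.06 (SD, n = 4), or -2.61 on the log2 scale, and that of Cdh6 was at -2.58. The Pcdh9 element was at -2.50 with an adjusted p of 0.00243, which was 0.0101 without pMN 100 nM replicate 3 and 0.0104 without pMN 500 nM replicate 3.

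The remaining lists had few calls. Genes of retinoic acid signalling and the TALE homeobox family had 2 of 99 elements called, both higher in pMN, among them an element 154 kb from Cyp26a1, an enzyme that degrades retinoic acid, at 2.63. Genes of the Wnt, BMP and FGF response had 2 of 130, both nearest to Dusp6, a phosphatase of ERK, and the more changed one (chr10:99196729-99198369) rose from 81.0 ± 14.9 (SD, n = 5) to 524 ± 80.1 (SD, n = 4). NFI and late temporal factors had 2 of 81, an intronic element of Nfia at 2.42 and one of Zfhx3 at -2.13. The SOX and POU factors had 1 of 61, an intronic element of Sox6 (chr7:115672820-115673382) at -2.56, with 308, 177, 145, 233 and 168 in p0-1 and 41.2, 23.5, 42.1 and 30.4 in pMN. Proneural and Notch genes had 0 of 99 called by limma, although 26 were higher in pMN and 6 higher in p0-1 at an adjusted p under 0.01 alone, with a median of 0.12. Over all 32346 elements tested, 4058 were higher in pMN and 1780 higher in p0-1 at that p. V0 and V1 interneuron genes had 0 of 46 called, with 3 and 5 at that p and a median of -0.27, and V2 interneuron genes had 0 of 26, with 3 and 2 and a median of -0.11. Shares of 2.02% for the retinoic acid list, 1.54% for the Wnt, BMP and FGF list, 2.47% for the NFI list and 1.64% for the SOX and POU list were near or below the 2.9% of all elements tested. A count of 0 in lists of this size is close to that background too, and the lists were not tested against each other.

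**Figure D3:**
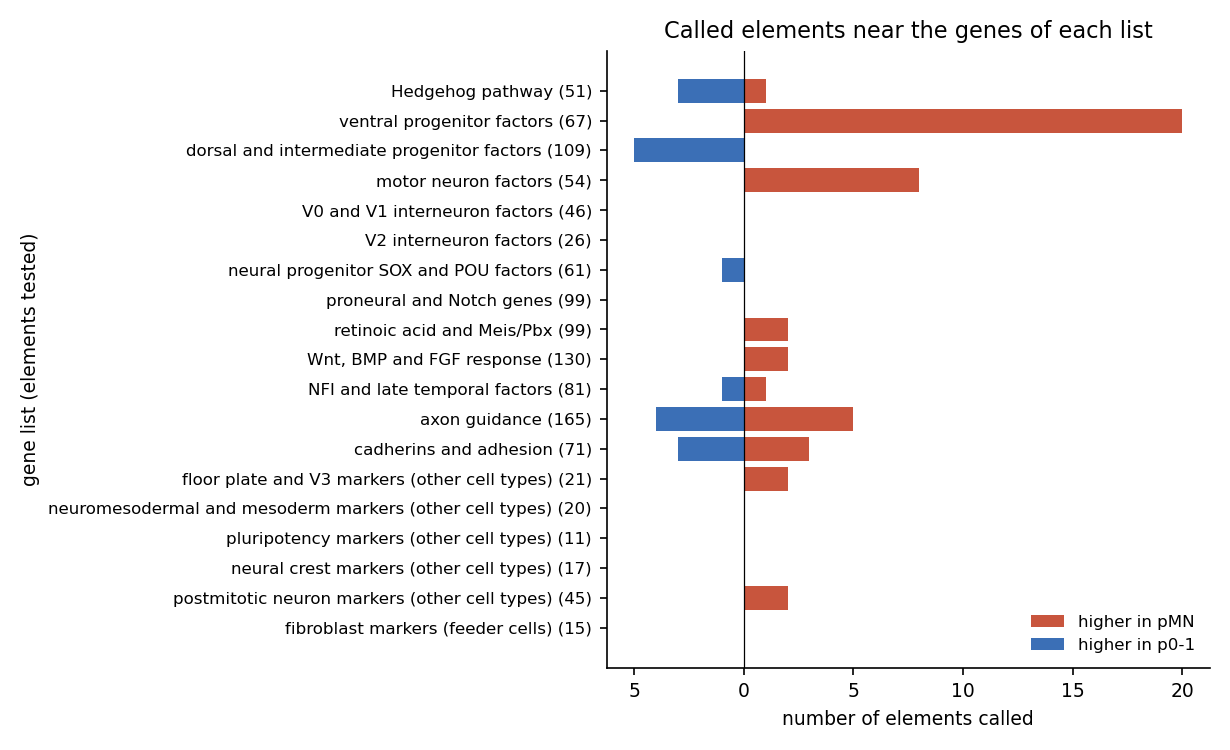
Number of elements called near the genes of each list (x), higher in pMN to the right in red and higher in p0-1 to the left in blue, for 19 lists (y) with the number of elements tested in brackets. Ventral progenitor factors have 20 called elements of 67 and motor neuron factors 8 of 54, all higher in pMN, and dorsal and intermediate progenitor factors have 5 of 109, all higher in p0-1.

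Markers of other cell types were examined beside these results. Postmitotic neuron markers had 45 elements tested, 2 of them called higher in pMN, near Rbfox3 at 2.09 and near Elavl4 at 2.18, with a median of 0.50 over the 45. The share called was 4.44%, against 2.19% of all elements tested. At an adjusted p under 0.01 alone, 18 of the 45 were higher in pMN and 0 higher in p0-1, against 4058 and 1780 of all 32346 elements tested. The Elavl4 call was lost without 0 nM p0-1 replicate 2, at 1.97, and without pMN 100 nM replicate 3, at 1.91. The summed level of the 10 of 12 neuron marker genes that have elements within 1000 bp of a TSS, taken over these elements, was 5160 to 6942 in p0-1 and 7399 to 8793 in pMN, without overlap, and 7990 to 9119 in the day 3 neuromesodermal progenitors (NMPs). No such element of any list was at 0 in all 9 samples. Neuron markers thus moved with the groups, as motor neuron genes did, and the part of neurons in these results was not tested. The sort took SOX2-positive cells, and how many neurons passed that gate was not measured here. The stain panel also held an antibody to the neuronal tubulin TUBB3, and whether it was used in the gate is not given in the sources used here.

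Fibroblast markers, included because the stem cells were kept on feeder fibroblasts, had 0 of 15 elements called. At an adjusted p under 0.01, 4 were higher in pMN and 1 higher in p0-1, against 4058 and 1780 of all 32346 elements tested. The summed level of the 5 of 8 genes with an element within 1000 bp of a TSS was 1353 to 1753 in p0-1, 1017 to 1189 in pMN and 3508 to 3895 in NMPs, so it also moved with the groups, in the other direction, and its part was not tested. Floor plate and V3 markers had 2 of 21 called, both higher in pMN, 9.52% against 2.19% of all elements tested, among them one near Spon1 at 2.83. Their sums over 4 of 6 genes overlapped, with 1263 to 1704 in p0-1 and 1271 to 1487 in pMN. The markers of NMPs and mesoderm, of pluripotency and of neural crest had 0 called of 20, 11 and 17 elements, with 1, 1 and 2 at an adjusted p under 0.01, and their sums overlapped between the cell types. The ranges were 3419 to 4266 in p0-1 and 3249 to 3520 in pMN for NMPs and mesoderm (9 of 12 genes), 1412 to 1766 and 1205 to 1529 for pluripotency (6 of 8), and 3197 to 3400 and 3086 to 3248 for neural crest (5 of 6). The promoter share of reads also moved with the groups. It was 33.0% to 37.0% in p0-1 and 31.0% to 34.4% in pMN, lower in pMN within each replicate number, and its part in the results was not tested.

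Called elements were mostly distal. Of those higher in pMN 6 were promoters, 0.847%, and of those higher in p0-1 2 were, 0.866%, against 21.2% of all elements tested. Intergenic elements made up 47.9% and 51.9%, against 31.1%, and introns 48.2% and 44.2%, against 35.0%. The median distance to the nearest TSS was 53763 bp for elements higher in pMN, 73743 bp for those higher in p0-1 and 10510.5 bp for all. Beyond 100 kb lay 220 of the elements higher in pMN, 31.1%, and 102 of those higher in p0-1, 44.2%, against 16.1% of all. Called elements were also narrower, with medians of 1046 and 953 bp against 1319 bp, and lower in GC content, with 47.2% and 44.1% against 52.1%. Their median mean counts were 182 and 163, against 338 for all, so they had fewer reads than the typical element tested.

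The promoters higher in pMN were annotated to Eya2, Ddc, Gm7271, Serpina3h, 6430562O15Rik and Gm10865, with log2 fold changes from 2.15 at Gm10865 to 2.59 at Ddc and a larger one at Eya2. Ddc encodes the decarboxylase that makes dopamine and serotonin, and its element (chr11:11890071-11890857) rose from a mean of 33.9 to 209 normalized counts. Within 1000 bp of a TSS there were 7 called elements higher in pMN, which added Olig2 and Klb to 5 of these promoters. Those higher in p0-1 were annotated to Mtm1, which encodes a lipid phosphatase, at -3.05, and Cyp2c39 at -2.17, the only called element within 1000 bp of a TSS in that direction. The nearest TSS of the Eya2 and Mtm1 elements was 25075 and 4368 bp away, although the annotation calls them promoters.

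Several genes had more than 2 called elements in the same direction. Besides Nkx6-1, Olig2, Olig1, 2810032G03Rik, Cdh11, Lhx3 and Dbx1, they were Efnb2 with 4 of 28 elements tested and 1 in the opposite direction, Wwc1 with 4 of 17, 1700024I08Rik with 3 of 4, Hsd17b3 with 3 of 6, Nrxn3 with 3 of 21, Sox2ot with 3 of 9 and, higher in p0-1, Sugct with 3 of 6. The 708 elements higher in pMN had 621 nearest genes and the 231 higher in p0-1 had 218, so most genes had 1 called element. Wwc1 encodes a scaffold of the Hippo pathway, Nrxn3 a synaptic adhesion protein and Sox2ot a long RNA that overlaps Sox2.

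Within each cell type, the SAG concentrations were compared in the same way. Between 0 and 10 nM in p0-1, limma called 0 of 31156 elements, 0%, with 5715 at an unadjusted p under 0.05. Between 100 and 500 nM in pMN it called 0 of 33263, 0%, with 288 at that p, and between 10 and 100 nM in the day 6 p2 progenitors, which lie between the 2 domains, 0 of 32568, 0%, with 3321. With the replicate number as a block, 91 elements were called between 0 and 10 nM in p0-1, 22 higher at 10 nM and 69 higher at 0 nM. That block leaves 1 residual degree of freedom per element. Over the 4 samples whose numbers occur at both concentrations, a fit chosen after seeing the data, 61 were called, 18 and 43. Of the 91, 3 were also called between the cell types, nearest to Cyp7b1, 4930519L02Rik and Nkx6-1, with log2 fold changes of 10 over 0 nM of 2.17, -2.07 and 2.12. At the Cyp7b1 element the step within p0-1 was opposite to the difference between cell types, and at the other 2 it had the same sign. The blocked fits of pMN and p2 also called 0.

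The elements called between cell types nevertheless had small shifts with SAG, which share samples with the comparison in p0-1 and pMN. Those higher in pMN had a median log2 fold change of 0.55 for 10 over 0 nM in p0-1, against 0.10 for all elements tested, and 0.09 for 500 over 100 nM in pMN, against -0.02. Those higher in p0-1 had medians of 0.20 and -0.54. These medians are over all called elements, whereas the values for all elements tested cover only those that passed the filter on the mean. Within p0-1, 167 of the 708 passed it, with a median of 0.63. Within pMN, 34 of the 231 passed it, with a median of -0.63. The p2 samples are separate and span the step of SAG between the 2 cell types. In them the medians of 100 over 10 nM were -0.07 for elements higher in pMN, of which 328 of 708 were positive, and -0.25 for elements higher in p0-1, of which 182 of 231 were negative, with a median of -0.04 and 41.0% positive among all elements tested. Fewer elements were called across adjacent concentrations, with fewer samples too. Between 10 nM p0-1 and 100 nM pMN 586 elements were called, 418 higher in pMN and 168 higher in p0-1, and between 0 nM p0-1 and 500 nM pMN 912 were called, 791 and 121. Among named elements, those of Rbfox3, Zfhx3, Sp8 and Hhip fell below the fold change threshold between the adjacent concentrations, at 1.91, -1.90, 1.92 and 1.79. Between 0 and 500 nM, with 2 samples against 2, the elements of 4833438C02Rik, Boc, Cdh12, Lhx3, Lhx4, Slit3, Sox6, Spon1, Robo2 and Elavl4 were not called, with an adjusted p of 0.0103 to 0.0177 by limma. Their log2 fold changes were still beyond 2, such as 4.49 for Lhx3, 3.97 for Lhx4 and -2.46 for Boc, whereas that of Unc5c was 1.76 (adjusted p = 0.0241). With 1 value per cell type and replicate number, those of Cdh6, Robo1, Slc8a1, Hhip, Spon1, Pcdh9 and Elavl4 were not called, with an adjusted p of 0.0106 to 0.0193 by limma. Their log2 fold changes stayed close, such as -2.63 for Cdh6 and -3.57 for Slc8a1, with 1.97 for Hhip just below the threshold. Unc5c was then at 1.97 too.

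**Figure D4:**
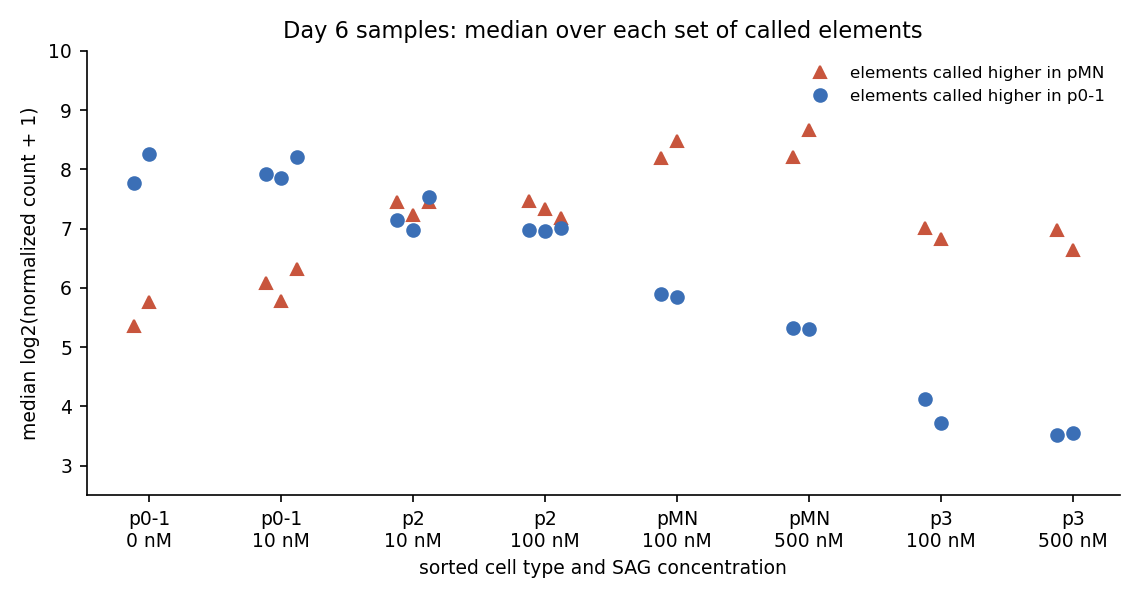
Median over the 708 elements called higher in pMN (red triangles) and over the 231 called higher in p0-1 (blue circles) of log2(normalized count + 1) (y) in each day 6 sample, by sorted cell type and SAG concentration (x). The p0-1 and pMN samples were used to choose the elements, and p2 lies between them at both concentrations while p3 falls to 3.51 to 4.13 for the elements higher in p0-1.

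The 2 cell types not used in the choice were placed on the same elements. In p2 at day 6 the median log2(normalized count + 1) over the elements higher in pMN was 7.18 to 7.47 per sample, against 5.36 to 6.31 in p0-1 and 8.19 to 8.66 in pMN. Over the elements higher in p0-1 it was 6.96 to 7.54 in p2, 7.77 to 8.26 in p0-1 and 5.31 to 5.89 in pMN. On a scale of log2 levels from 0 at p0-1 to 1 at pMN, p2 was at a median of 0.565 for the first set and 0.379 for the second. It was nearer pMN for 448 of 708 elements, 63.3%, and for 72 of 231, 31.2%. On the log2 scale the p2 samples were thus, by the median, closer to the cell type in which the elements were more open, in both sets. This placement depends on the scale. The median normalized counts were 58.2 in p0-1, 169 in p2 and 337 in pMN for the first set. For the second set they were 258, 135 and 48.4. On these counts p2 was closer to the cell type in which the elements were less open, in both sets. The p0-1 and pMN values chose the elements, so this is a description without a test. Between p0-1 and p2, which shares the p0-1 samples, 263 elements were called, 0.823%, 256 of them higher in p2. Between p2 and pMN 137 were called, 0.417%, 58 higher in pMN and 79 higher in p2.

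The p3 progenitors, which lie ventral to pMN and had the same 100 and 500 nM SAG as pMN, differed between the sets. Elements higher in pMN were at 6.64 to 7.02 in p3, below pMN, with a median position of 0.305, and 260 of 708 were nearer pMN. Elements higher in p0-1 were at 3.51 to 4.13 in p3, below pMN too, and 204 of 231 were beyond pMN, with a median position of 1.75. The element 59.8 kb from Dbx1 had 10.8 ± 7.93 (SD, n = 4) normalized counts in p3, against 560.4 ± 126 (SD, n = 6) in p2. The Slc18a3 element instead had 654 ± 55.8 (SD, n = 4) in p3, above the 327 ± 92.5 (SD, n = 4) of pMN, and the Nkx6-1 element at 167 kb 757 ± 60.9 (SD, n = 4), above the 421 ± 103 (SD, n = 4) of pMN. These values for p3 were not tested against pMN.

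The same comparison was made at days 5 and 4 in other samples, though the sources used here do not say whether the samples of different days came from the same differentiations. At day 5, 613 elements were called between 6 p0-1 and 5 pMN samples, 1.92%, and at day 4, 152 between 6 and 6, 0.511%. Of the 152, 148 were higher in pMN, and the 4 higher in p0-1 were nearest to Sfrp5, Cdk6, Fgfr2 and 2310008N11Rik. All 708 elements called higher in pMN at day 6 were higher in pMN at day 5, with a median log2 fold change of 2.24, and all 231 called higher in p0-1 were lower in pMN, with a median of -1.78. Of these, 482 of 708 and 186 of 231 passed the filter on the mean at day 5, with medians of 2.19 and -1.81. Over all elements tested at day 5 the median was -0.09 and 35.1% were positive. At day 4, 671 of 708 and 206 of 231 had the same direction, with medians of 1.05 and -0.60, against -0.11 over all and 32.4% positive. Of the elements higher in pMN, 249 passed the filter on the mean at day 4 and 59 were called, and of those higher in p0-1 60 passed and 0 were called.

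**Figure D5:**
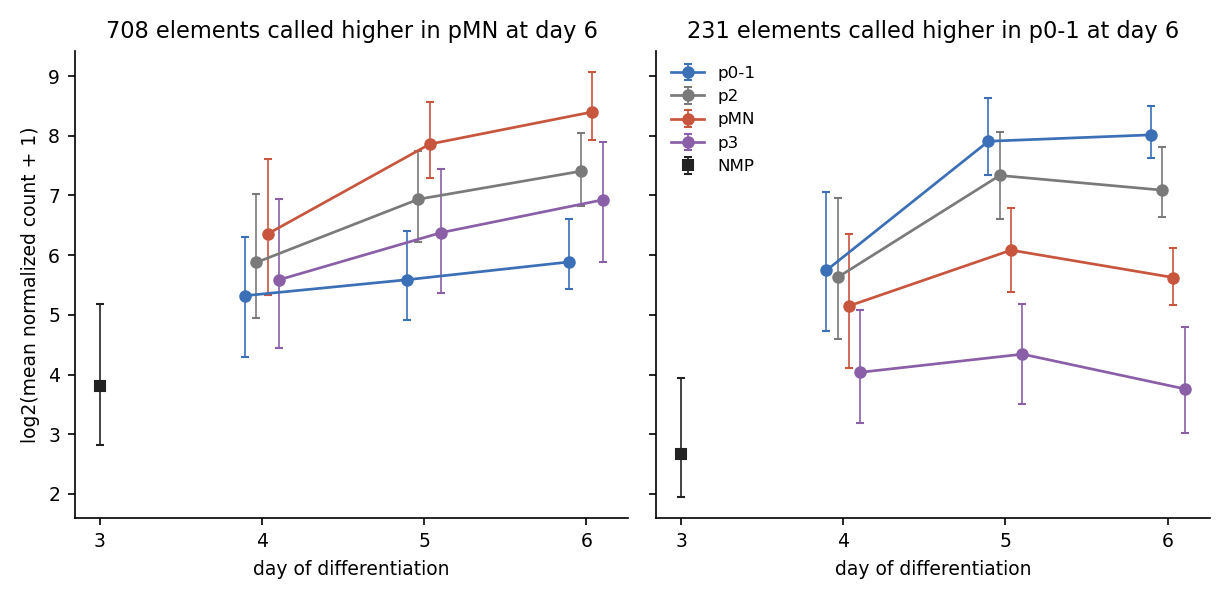
Median over the elements called higher in pMN (left) and higher in p0-1 (right) at day 6 of log2(mean normalized count + 1) (y) by day (x) for NMP, p0-1, p2, pMN and p3, with bars from the lower to the upper quartile over elements. Elements higher in pMN rise from 3.81 in NMPs to 8.40 in day 6 pMN and stay near 5.3 to 5.9 in p0-1, and elements higher in p0-1 rise from 2.68 to 7.91 by day 5 in p0-1.

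Both sets were low in day 3 NMPs, with median log2 levels of 3.81 and 2.68, against 8.19 for all elements tested. In pMN the elements higher in pMN went from 6.36 at day 4 to 7.86 at day 5 and 8.40 at day 6, while in p0-1 they were at 5.32, 5.59 and 5.89. The elements higher in p0-1 went from 5.74 to 7.91 and 8.02 in p0-1, and from 5.15 to 6.08 and 5.63 in pMN. The elements were chosen for their day 6 difference, which fixes the larger gain in 1 cell type, and the median was above the NMP level in the other cell type as well. Single elements differed in their timing. The Nkx2-9 element was already at 688 in day 4 pMN and 24.0 in p0-1, whereas the one 40.9 kb from Olig2 was at 10.6 and 7.77, and had 128 and 16.96 at day 5. The Jak2 element was at 10.6 in day 4 p0-1 and 388 at day 5, and the Mnx1 element was more open in NMPs, at 368, than in day 4 pMN, at 74.9.

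Whether the difference itself changed between days 5 and 6 was tested as an interaction. Limma called 0 of 32201 elements, 0%, with 2447 at an unadjusted p under 0.05, and the lowest adjusted p among the called elements was 0.0213. The median change of the log2 fold change was 0.25 for the elements higher in pMN, of which 417 of the 595 passing the filter had a larger fold change at day 6. It was -0.61 for those higher in p0-1, of which 189 of 201 had a larger fold change at day 6, against -0.005 for all. The elements were chosen at day 6, so a larger value on that day was part of the choice, and no change between the days was shown for any of them.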

How the data were processed

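ATAC-seq was made from 67 sorted samples, of which 9 entered the main comparison. The authors aligned reads with the nf-core ATAC-seq pipeline to mm10, called MACS peaks, merged them to consensus elements, counted reads per element and deposited log2-like values, the variance-stabilized counts of DESeq2. The aligner is not given in the sources used here. Replicates are independent differentiations per the study's figure legends. The main fit took all 9 samples as separate, although some share a replicate number, so its p-values do not measure the spread between differentiations alone. With 1 value per cell type and replicate number, 702 elements were called, 553 higher in pMN and 149 higher in p0-1.

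The stabilizing transformation was inverted to normalized counts, and 100% of values below 1000 reads came back whole within 1e-06. All 111638 elements and their nearest genes came from the deposited tables, and 0 columns were unmapped. Elements with a mean above 100 normalized counts over the samples compared were tested with limma 3.58.1 (R 4.3.3) on the log2-like values, with a variance trend and Benjamini-Hochberg adjustment. A call needed an adjusted p below 0.01 and a log2 fold change of mean normalized counts plus 1 beyond 2. Standard errors are of the difference on the log2-like scale. On simulated data the test recovered 81 of 100 elements changed 6-fold and 98 of 100 changed 16-fold, with 0 false calls among 31615 elements. The simulated samples were drawn independently, without the shared deviations of same-numbered samples, and unchanged elements had equal means. The simulation therefore does not measure how often false calls occur in the real samples. Other steps used Python 3.11.15 with pandas 2.3.3, numpy 2.4.6, scipy 1.17.1 and matplotlib 3.10.9. Reference sequences and annotation were GRCm38, the same assembly as mm10. Of 8271 elements annotated as promoters, 8225 lay on the chromosome of the reference gene of that name.

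Elements named were the 10 largest and 10 smallest log2 fold changes among called elements without overlap, and the most changed called one of each list gene. The element nearest the TSS was named only for some list genes, which were picked and not set by a rule. Genes with 3 or more called elements were named as well. The members and lists were chosen with earlier results of these data known, and the Cdon element after its values were seen. Same-numbered samples deviated together from their group means, with r of 0.537 to 0.849 over 12 pairs, above the 0.1 set for pairing, so the replicate numbers of the titles were taken to pair the samples. The 18 pairs with different numbers had r of -0.849 to 0.653 (median -0.654). Groups of 2 give mirror-image deviations, and p0-1 10 nM replicate 1 had r of 0.461 to 0.653 with the 3 replicate 2 samples of the other groups. By the titles no other of these samples has its number. The sample descriptions number some samples otherwise, and there it shares its number with those 3 samples. Which numbering is right is not given in the sources used here. Replicate numbers in this text are those of the titles. Replicate numbers were used as a block only in alternatives. The block with the description numbers called 937 elements, 711 higher in pMN and 226 higher in p0-1. The alternatives were other filters, thresholds, scalings, GC correction, voom on the recovered reads, subsets of SAG concentrations and leaving out each sample. Nkx2-2 and Sox21 were not analysed here. Some named elements are not reported here.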

Additional observations from a re-analysis of the deposited data

Results flagged for a closer look

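In 1 of the 158 sets of 4 or 5 samples examined, 1 sample stood apart from the rest by Dixon's criterion, which chance alone meets in about 1 of 20 sets. At the element 624 kb from 2810032G03Rik (chr12:5999043-6000192), the 0 nM p0-1 replicate 2 had 7.06 normalized counts and the nearest other p0-1 sample 31.5, a gap of 0.767 of the range of the 5 samples. The 4 pMN samples had 558 to 743, and the log2 fold change was 4.35.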

How the results depend on the processing

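The main comparison called 939 elements, 708 higher in pMN and 231 higher in p0-1. With a fold change threshold of 2 in place of a log2 value of 2 it called 3993 (3002 and 991), without the filter on the mean 4122 (3082 and 1040), and with the filter on the mean over all 67 samples 585 (470 and 115). Only 10 nM p0-1 against 100 nM pMN gave 586, with 418 higher in pMN, and only 0 nM p0-1 against 500 nM pMN gave 121 higher in p0-1. With 1 value per cell type and replicate number 149 were higher in p0-1, and with the replicate block and GC correction 349. Leaving out each sample gave 715 to 1133 elements, 527 to 959 higher in pMN and 174 to 287 higher in p0-1. Other scalings, voom, no trend, all day 6 samples and the replicate block alone (952) stayed within 1.5 times of 939. Between 0 and 10 nM in p0-1, the replicate block raised the count from 0 to 91, and the block over numbers present at both concentrations, chosen after seeing the data, gave 61. Without the filter 1 element changed its difference between days 5 and 6, and leaving out samples gave 0 to 2, the latter without day 6 p0-1 0 nM replicate 3. The cause was not tested for any of these. Of 77 named elements 56 were called, and 20 of these lost the call in at least 1 of 17 alternatives, while 0 changed direction. Apart from Cdon, the replicate block changed no call among them. Elements with few reads are measured less precisely than others.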
